A study of Mus musculus with 6 samples.

Results

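Immunoglobulin variable genes were examined in lung RNA of Zpbp2 knock-out (KO) mice and wild type (WT) controls. A member was any row of the count table whose symbol begins with Ighv, Igkv or Iglv followed by a digit and that had at least 10 counts summed over the 6 libraries. These names denote the variable gene segments of the heavy chain (Ighv), the kappa light chain (Igkv) and the lambda light chain (Iglv). Of 47069 genes in the table, 350 carried such a symbol and 192 were members, namely 94 Ighv, 95 Igkv and 3 Iglv genes. Another 99 rows had 0 counts in all libraries and 59 had between 1 and 9, and these 59 held 233 counts together against 166070 in the members. Just inside the minimum were Igkv4-90 and the Igkv12-47 row with identifier ENSMUSG00000106256, with 10 counts each, and just outside it were Ighv1-49, Ighv1-56, Igkv14-126-1 and Igkv8-34, with 9 counts each. In 22 members the KO libraries alone reached the minimum and in 4 the WT libraries alone did so. The annotation calls 8 members pseudogenes, and these held 0.137% of the members' counts.

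KO mice were of the strain B6.129S7-Zpbp2tmZuk/Mmjax, which carries a deletion of Zpbp2 exons 1 to 3 in a C57BL/6J background, and WT mice were C57BL/6J born and kept in the same colony. Whole lungs were taken from adult mice, housed in equal periods of light and dark, at ZT10, that is 10 h after lights on, and 1 library was made per mouse (WT4, WT5, WT6, KO4, KO5 and KO6), with values always listed in this order. The study used adults of both sexes, and the labels name no treatment of either group.

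An antibody chain is encoded by a variable segment that is joined to a joining segment, and in the heavy chain also to a diversity segment, in each developing B cell. A mature B cell therefore transcribes mainly the single rearranged variable gene of its heavy chain and that of its light chain, and all its descendants inherit them. Plasma cells, the antibody-secreting descendants of B cells, hold far more immunoglobulin RNA than resting B cells. In bulk lung RNA the share of a locus that falls on a variable gene thus mixes the number of cells that carry it with the RNA in each of them, and fewer cells of a type and less RNA per cell cannot be told apart. Counts per variable gene do not identify clones, since unrelated cells can use the same gene and the junction was not read.

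In the GRCm38 build with GENCODE M21 annotation, the Ighv members lie on the minus strand of chromosome 12 between 113578504 and 116000461. The Igkv members lie on chromosome 6 between 67555497 and 70704177, with 37 on the plus and 58 on the minus strand, and the Iglv members lie on the minus strand of chromosome 16 between 19085017 and 19260859. The last 96 bases of the reference transcript are shown for the genes that held the largest share of their locus in at least 1 mouse, that is the genes whose shares the dominance of a locus turns on, with Iglv2 and Iglv3 for comparison with Iglv1. They are printed 5′ to 3′ as transcribed, and the capitals mark the codon of the conserved cysteine that precedes the third antigen-contacting loop (CDR3).

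Ighv1-26: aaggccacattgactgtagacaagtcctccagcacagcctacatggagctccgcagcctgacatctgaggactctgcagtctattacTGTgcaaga
Ighv1-20: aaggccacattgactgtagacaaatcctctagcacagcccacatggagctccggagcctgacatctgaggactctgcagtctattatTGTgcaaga
Ighv1-82: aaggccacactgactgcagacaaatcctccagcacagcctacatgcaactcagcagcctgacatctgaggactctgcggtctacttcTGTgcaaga
Ighv3-6: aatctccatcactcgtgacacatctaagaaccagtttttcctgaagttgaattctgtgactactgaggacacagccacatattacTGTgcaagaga
Igkv3-2: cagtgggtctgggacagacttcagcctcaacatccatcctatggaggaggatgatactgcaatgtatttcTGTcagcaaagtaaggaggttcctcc
Igkv5-39: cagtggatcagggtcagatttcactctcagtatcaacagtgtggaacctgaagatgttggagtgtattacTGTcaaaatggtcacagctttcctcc
Igkv12-98: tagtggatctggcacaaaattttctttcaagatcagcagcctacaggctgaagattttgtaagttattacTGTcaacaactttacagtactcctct
Iglv1: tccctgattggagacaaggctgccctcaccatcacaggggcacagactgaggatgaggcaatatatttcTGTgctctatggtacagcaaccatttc
Iglv2: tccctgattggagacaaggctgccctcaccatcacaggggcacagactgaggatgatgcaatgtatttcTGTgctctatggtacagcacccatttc
Iglv3: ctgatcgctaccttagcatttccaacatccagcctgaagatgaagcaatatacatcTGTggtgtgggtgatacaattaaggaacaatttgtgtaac

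The 3 leading genes of the Ighv1 family, Ighv1-26, Ighv1-20 and Ighv1-82, and the Ighv3 family gene Ighv3-6 contribute 6 to 8 bases after the cysteine codon, whereas Igkv3-2, Igkv5-39 and Igkv12-98 contribute 23 bases. Ighv1-26 was most similar to Ighv1-18 among the members (96.9% identity over the shorter transcript), and Ighv1-20 to Ighv1-37 (98.6%). Iglv1 and Iglv2 shared 96.7% of their bases. The printed stretches lie at chr12:114788372-114788467 (Ighv1-26), chr12:114723772-114723867 (Ighv1-20), chr12:115952538-115952633 (Ighv1-82) and chr12:114288152-114288247 (Ighv3-6), at chr6:70698972-70699067 (Igkv3-2, plus strand), chr6:69900424-69900519 (Igkv5-39, minus strand) and chr6:68571140-68571235 (Igkv12-98, plus strand), and at chr16:19085017-19085112 (Iglv1), chr16:19260401-19260496 (Iglv2) and chr16:19241207-19241302 (Iglv3). Reads from the most similar members may have been divided between them in the counting.

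Total counts per library lay between 19981428 and 46796908. Zpbp2 itself had 1, 2 and 2 counts in WT4 to WT6 and 0 counts in each KO mouse, so the labels could be checked only weakly in this tissue. The labelled tissue was borne out by lung genes such as Sftpc and Scgb1a1, which had at least 228733 counts in every library. KO5 had the deepest library and stood apart in lymphoid genes: 12 B cell markers summed to 1253 CPM (counts-per-million units of the library total) in KO5, against 301 and 374 CPM in KO4 and KO6 and 156 to 174 CPM in the WT mice. T cell markers summed to 134 CPM in KO5 and to 42.5 to 69.6 CPM in the other mice. Nothing in the labels assigns the libraries to batches.

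To ask whether KO and WT lungs differed in the amount of variable gene RNA, the members were summed by locus and tested within the whole table. For all 3 loci the lowest KO mouse had more CPM than the highest WT mouse, but no locus passed the adjusted threshold. CPM of the locus sums and of single genes are TMM-scaled. Ighv summed to 69.4, 194 and 254 CPM in WT4 to WT6 and to 393, 402 and 827 CPM in KO4 to KO6. The lowest KO value was above the highest WT value, and KO6 was far above the other KO mice. The means were 172 ± 94.0 CPM (SD, n = 3) in WT and 541 ± 248 CPM (SD, n = 3) in KO mice, and edgeR's quasi-likelihood test estimated the log2 fold change at 1.65 with a standard error of 0.48 (adjusted p = 0.0840, edgeR, Benjamini-Hochberg over 16895 rows).

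Igkv summed to 111, 352 and 529 CPM in WT4 to WT6 and to 903, 637 and 1444 CPM in KO4 to KO6. The groups did not overlap, and WT4 was again the lowest mouse by a wide margin. The log2 fold change was 1.59 (standard error 0.53, adjusted p = 0.117, edgeR). Iglv, which in the mouse holds only few genes, summed to 11.99, 12.8 and 16.8 CPM in WT mice and to 19.8, 41.6 and 24.8 CPM in KO mice in the same order. Here KO5 rather than KO6 was the highest mouse. The log2 fold change was 1.06 (standard error 0.27, adjusted p = 0.0601, edgeR). The exact permutation test over mice gave p = 0.1 for each locus, the smallest value that 3 mice against 3 allow, or 0.28 after adjustment over the 14 tests of this kind. Leaving out each mouse in turn gave log2 fold changes of 1.20 to 2.04 for Ighv, 1.17 to 2.10 for Igkv and 0.68 to 1.26 for Iglv. Without KO5, the log2 fold changes were 1.82, 1.82 and 0.68. Without KO4 the Iglv sum passed the threshold (log2 fold change 1.26, adjusted p = 0.0307, edgeR).

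**Figure D1:**
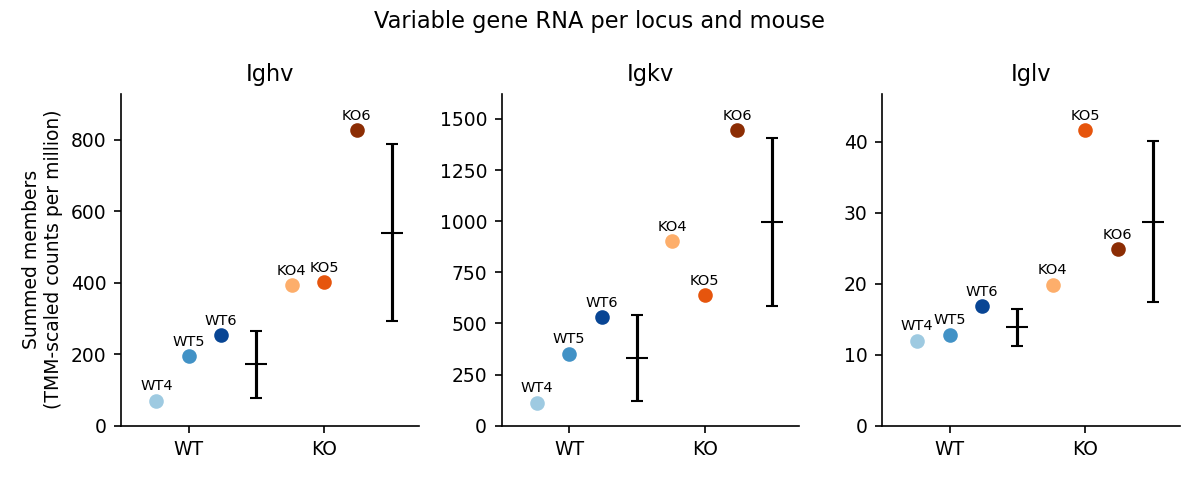
Summed counts of the members of each locus per mouse, in TMM-scaled CPM on a linear axis that starts at 0. Points are mice and the bars beside them give mean ± SD (n = 3); each KO mouse lies above all WT mice in all 3 panels, and the highest mouse is KO6 for Ighv and Igkv (827 and 1444 CPM) and KO5 for Iglv (41.6 CPM).

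Genes of the cells that transcribe these loci were also measured. All 12 B cell markers had a positive log2 fold change and did not overlap between groups, whereas 17% of all genes tested did not overlap with KO higher. Their median was 1.94 against 0.00295 over all genes tested. Only Pou2af1, a coactivator of immunoglobulin promoters, passed the threshold (1.82, standard error 0.40, adjusted p = 0.0452, edgeR). Of all genes tested 3.72% were called higher. Without KO5 the log2 fold change of Pou2af1 was 1.37 and no longer passed (adjusted p = 0.0601, edgeR). In that fit the median of the list was 1.01 and 9 of its genes were called higher, against 595 of all 17033 genes. Cd79a, a signalling chain of the B cell receptor, had 478, 359 and 664 counts in WT4 to WT6 and 748, 6652 and 820 counts in KO4 to KO6 (log2 fold change 1.92, adjusted p = 0.0716, edgeR). Without KO5 the Cd79a log2 fold change was 0.99 and passed the threshold (adjusted p = 0.00954, edgeR). The level of Cd79a in KO5 was far above that in any other mouse, which was not so for Ighv or Igkv.

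Of 8 plasma cell genes 1 passed the threshold, the transcription factor Irf4 (log2 fold change 1.54, adjusted p = 0.0176, edgeR), against 3.72% of all genes called higher. The median was 1.26 (1.28 without KO5). Of this list 5 genes had non-overlapping groups with KO higher, against 17% of all genes tested. Sdc1, Xbp1 and Prdm1 overlapped, with log2 fold changes from -0.14 to 0.19. Sdc1 and Xbp1 were at 183 to 265 CPM in every mouse, against 0.19 to 1.73 CPM for Tnfrsf17 of the same list. Which cells their RNA came from was not tested. Jchain, which links polymeric antibodies, had 1448, 3141 and 7379 counts in WT4 to WT6 and 7132, 12071 and 13063 counts in KO4 to KO6 (log2 fold change 1.48, adjusted p = 0.139, edgeR). Scaled for depth, these were 58.3, 151 and 239 CPM in WT4 to WT6 and 349, 253 and 645 CPM in KO4 to KO6. By CPM, KO5 was thus the lowest KO mouse for Jchain. Per count of Jchain there were between 1.06 and 1.59 Ighv counts in every mouse. Per count of Cd79a there were 3.61, 11.3 and 11.8 Ighv counts in WT4 to WT6 and 10.7, 2.88 and 20.4 in KO4 to KO6, so the proportion to Jchain varied less between mice than that to Cd79a. The part of B cell and plasma cell number in the locus sums was not tested.

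The constant regions that follow the variable genes in the same transcripts were measured from separate exons. Igkv counts amounted to 70.8% to 78.1% of the counts of the kappa constant gene Igkc in every mouse, and Ighv counts to 11.7% to 18.3% of the summed heavy chain constant genes. Of 12 immunoglobulin constant genes 11 were tested, 9 of them with a positive log2 fold change, and the median was 1.53. The threshold was passed by 2, the lambda genes Iglc2 (log2 fold change 1.51, adjusted p = 0.0374, edgeR) and Iglc3 (1.69, adjusted p = 0.0470, edgeR), against 3.72% of all genes called higher. Without KO5 Iglc2 and Iglc3 were 1.15 and 1.17, with both still past the threshold. Ighm (1.86) and Igkc (1.58) did not pass. Ighg3 (-0.51) and Igha (-0.30) ran the other way, and their groups overlapped, as did those of Ighg1 and Ighg2b. Ighm, the constant region of IgM, held 54.3% of heavy chain constant counts in WT4 and 71.4% to 87.7% in the other mice. Igha, the constant region of IgA, held 32.3% in WT4 and 1.68% to 9.69% in the others. The level of Igha in WT4 was 123 CPM, within the 42.4 to 154 CPM of the other mice. Ighm was at 206 CPM in WT4 and at 830 to 4173 CPM in the others. The high Igha share of WT4 thus went with its low Ighm level and is not separate from its low sums. Of 5 lymphoid stroma genes 2 were tested, and Glycam1, an adhesion ligand of high endothelial venules, passed the threshold with 0, 2 and 5 counts in WT and 9, 172 and 53 counts in KO mice (log2 fold change 4.60, adjusted p = 0.0407, edgeR). Without KO5 its counts did not pass the filter and it was not tested. Among 6 germinal centre genes 4 were tested and none was called by edgeR (0 with an unadjusted p under 0.05), with a median of 0.07. Of 7 genes on the recombination list only Vpreb3 was tested, at -0.18. Rag1 and Rag2, which cut the segments for joining, were not tested and had at most 2 counts in any library. The 7 lung genes had a median of -0.23, and 1 of them, the endothelial gene Cldn5, was lower in KO mice (log2 fold change -0.31, adjusted p = 0.0362, edgeR), a call that was lost when any of the 6 mice was left out. Of the 8 T cell genes, all with positive log2 fold changes and a median of 0.87, none passed the threshold in edgeR. Of them 7 had an unadjusted p under 0.05, against 2375 of 17037 genes with such a p and KO higher. Without KO5 the median was 0.41.

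Gene by gene, 143 of the 192 members had enough counts to be tested, and the other members are described by their shares only. Of the 143 members 11 were called higher in KO mice at an adjusted p of at most 0.05 (7.69%), against 3.72% of all 17037 genes tested, and 1 was called lower, against 2.67% of all genes. Among the 11 are Ighv2-5 and Igkv11-125, the 2 tested members that reached the count minimum through the KO libraries alone, which leaves 9 others. All 11 also passed the study's threshold of |logFC| of at least 1.5, and the member called lower did not; 0.64% of all genes passed both thresholds in either direction. The log2 fold change was positive in 118 of the 143 members, with a median of 1.35 against 0.00295 over all genes, and without KO5 the median was 1.18. Members also had larger standard errors, with a median of 0.79 against 0.105 over all genes. These sets were not matched for level and some members had few counts, so variation between mice was not separated from counting error. KO and WT values did not overlap in 27 members with KO higher (18.9%), against 17% of all genes, and in 2 members with KO lower, against 15.6% of all genes. The count of members called was not stable: leaving out WT4, WT5, WT6, KO4, KO5 and KO6 in turn gave 2, 0, 0, 23, 15 and 2 members called higher, while the genes called higher in the whole table numbered 144, 0, 25, 797, 595 and 74 against 634 with all mice. Without WT5 or WT6 edgeR called none, and 51 and 45 members had an unadjusted p under 0.05 and a positive fold change. The share of all genes that did so in those fits was not counted. With all mice 44 of the 143 members did so, against 2375 of 17037 genes. DESeq2 called 26 members higher in all 6 libraries, where it called 6.87% of all genes with an adjusted p.

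**Figure D2:**
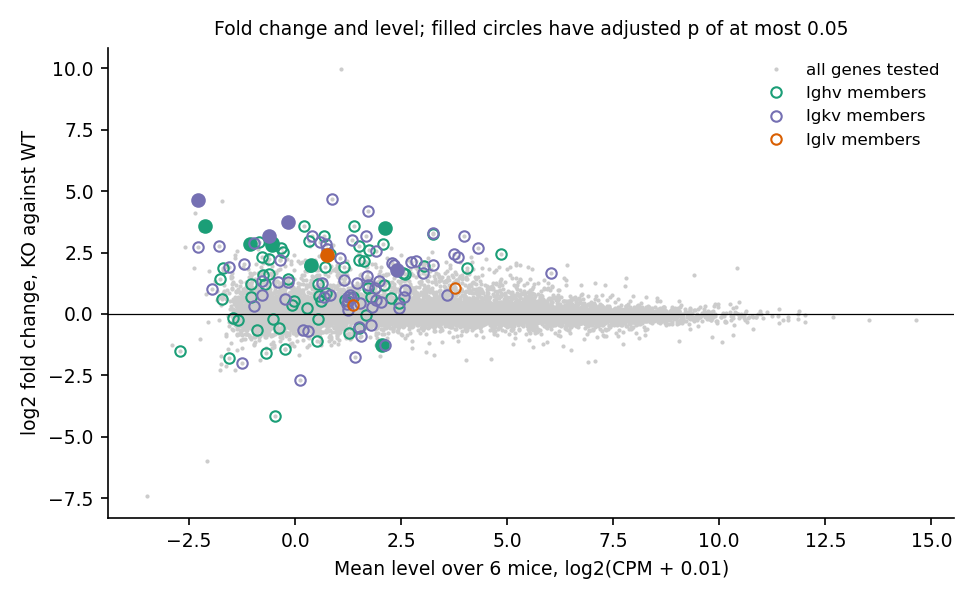
Log2 fold change of KO against WT for each of the 17037 genes tested (grey) and the 143 members tested (circles coloured by locus), against the mean of log2(CPM + 0.01) over the 6 mice. Filled circles are the 12 members with an adjusted p of at most 0.05. Most members lie above 0, and their scatter was not compared with that of other genes at the same level.

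Among the 6 heavy chain genes called higher, Ighv1-75 was the most abundant. It had 29, 21 and 66 counts in WT4 to WT6 and 117, 988 and 463 counts in KO4 to KO6 (log2 fold change 3.49, standard error 0.56, adjusted p = 0.0236, edgeR). Ighv1-7 had 18, 8 and 26 counts in WT and 74, 105 and 47 counts in KO mice (log2 fold change 2.01, adjusted p = 0.0241, edgeR). Both genes were counted in every mouse, and their groups did not overlap. The remaining 4 rested on few WT counts: Ighv1-59 had 4 to 10 per WT mouse (log2 fold change 2.79), Ighv5-9-1 had 5 to 8 (2.89), Ighv3-1 had 3 to 7 (2.83), and Ighv2-5 had 0, 3 and 3, at or under the floor of 3 counts in each WT library, against 20, 57 and 15 in the KO mice. The fitted fold of such rare genes depends on the prior count.

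The gene called lower was Ighv1-82, with 186, 139 and 163 counts in WT4 to WT6 and 69, 130 and 40 counts in KO4 to KO6. At these depths the levels were 6.47 ± 1.12 CPM (SD, n = 3) in WT and 2.69 ± 0.70 CPM (SD, n = 3) in KO mice (log2 fold change -1.26, standard error 0.23, adjusted p = 0.0282, edgeR). It was the leading heavy chain gene of WT4 and lies at the far end of the locus, 2524 kb from the joining segments. It ran against a locus whose sum was higher in all KO mice.

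Among the 4 kappa genes called higher, the Igkv19-93 row with identifier ENSMUSG00000098814 had the most counts, 55, 76 and 98 in WT4 to WT6 and 114, 668 and 226 in KO4 to KO6 (log2 fold change 1.78, adjusted p = 0.0351, edgeR). Igkv1-88 had 14, 4 and 3 counts in WT and 89, 242 and 35 counts in KO mice (log2 fold change 3.74, adjusted p = 0.0249, edgeR). Both kept their call when the replicate number was used as a block, and no other member was called in that fit. The paired mice share only that number, so nothing is read from the kept calls. Igkv4-50 had 11, 0 and 17 counts in WT and 58, 98 and 102 counts in KO mice (log2 fold change 3.19, adjusted p = 0.0426, edgeR), and Igkv11-125 had 5 counts in all WT mice together against 13, 68 and 67 in the KO mice. Of the lambda genes Iglv3 was called, with 15, 16 and 28 counts in WT4 to WT6 and 128, 178 and 45 counts in KO4 to KO6 (log2 fold change 2.40, adjusted p = 0.0246, edgeR). Each of these 12 genes lost its call when some mouse was left out: Igkv1-88 kept it in 4 of 6 such fits, Ighv2-5 and Iglv3 in 3, and the other genes in 1 or 2. Without KO5, 8 of the 11 kept their call, Ighv3-1 was not tested, Igkv11-125 was at 4.78 (adjusted p = 0.0601, edgeR) and Igkv19-93 (ENSMUSG00000098814) was at 1.47 (adjusted p = 0.0504, edgeR).

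To describe dominance within a mouse, each member's counts were divided by the counts of its locus in that mouse. The reference transcripts of the members are 313 to 501 bases long, and dividing counts by length left the leading gene the same in 18 of 18 combinations of mouse and locus. The leading Ighv gene held 10.8% of Ighv counts in WT4, 8.84% in WT5 and 16.6% in WT6, and 28.7% in KO4, 30.0% in KO5 and 20.7% in KO6. The KO values lay wholly above the WT values. The 95% Wilson intervals, which cover counting error only, were 15.8% to 17.4% for WT6, the highest WT mouse, and 20.1% to 21.3% for KO6, the lowest KO mouse. The means were 12.1 ± 4.03% (SD, n = 3) in WT and 26.5 ± 5.03% (SD, n = 3) in KO mice (two-sided exact permutation test p = 0.1, the smallest possible, and 0.28 after adjustment over 14 tests).

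The effective number of genes, which is the number of equally used genes that would give the same chance of drawing the same gene in a pair of reads, does not depend on depth. It was 27.0, 31.1 and 15.5 for Ighv in WT4 to WT6 and 8.20, 9.13 and 12.5 in KO4 to KO6, again without overlap (24.5 ± 8.12 against 9.95 ± 2.28 genes, SD, n = 3, exact permutation p = 0.1, adjusted 0.28). Of Ighv counts 50% fell on 10, 12 and 7 genes in the WT mice and on 3, 5 and 5 genes in the KO mice. The number of genes seen at an equal depth of 1725 counts was close in both groups, 79.0 ± 4.11 in WT and 75.9 ± 3.63 in KO mice (SD, n = 3, exact permutation p = 0.2, adjusted 0.467). Of the 94 Ighv members 12 reached the count minimum through the KO libraries alone and 0 through the WT libraries alone. The minimum thus favoured genes seen in KO mice, and 3 mice a group cannot show that the numbers are alike. The 3 mice with the smallest Ighv sums were the 3 WT mice, and whether dominance follows the amount of RNA or the genotype cannot be told apart. Without KO5 the difference in leading share was 12.6 percentage points. With the genes of a family added together the difference in leading share shrank from 14.4 to 1.11 percentage points and that in effective number from -14.6 genes to -0.11 families.

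**Figure D3:**
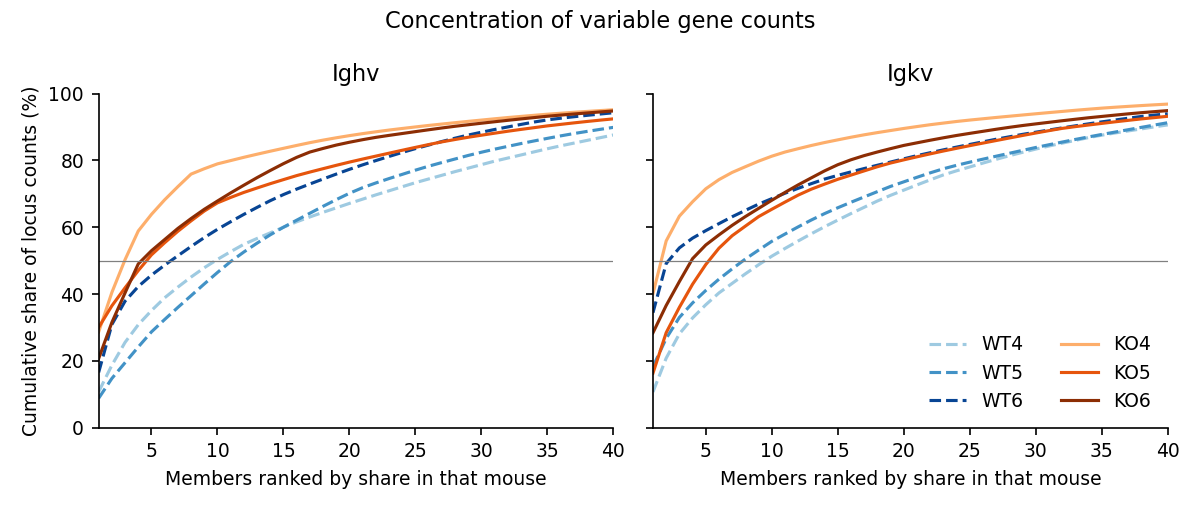
Cumulative share of the locus counts (%) held by the most used members, ranked within each mouse, for Ighv and Igkv; dashed lines are WT and solid lines KO mice, and the grey line marks 50%. For Ighv all KO curves start above all WT curves (20.7% to 30.0% against 8.84% to 16.6% at rank 1), while for Igkv the groups cross, with WT6 at 34.4% and KO5 at 16.4%.

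In the kappa locus the groups overlapped. The leading Igkv gene held 10.7%, 18.3% and 34.4% of Igkv counts in WT4 to WT6 and 40.1%, 16.4% and 28.4% in KO4 to KO6 (exact permutation p = 0.6, adjusted 0.764). The effective number was 24.3, 17.5 and 6.75 genes in WT and 5.06, 15.5 and 9.41 genes in KO mice (difference of means -6.20, exact permutation p = 0.4, adjusted 0.56). WT6 was thus more concentrated than KO5 and KO6. Leaving out a mouse moved the difference in effective number between -2.13 without WT4 and -10.9 without WT6, so the size of the kappa difference rested on the choice of mice. In the lambda locus Iglv1 led in every mouse, with 51.7%, 82.8% and 79.2% in WT4 to WT6 and 59.9%, 70.4% and 87.1% in KO4 to KO6 (exact permutation p = 1).

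The same genes led in mice of both genotypes. Ighv1-26 led in WT5, KO4 and KO6, was second in WT6 and KO5, and had the highest mean share of all Ighv genes, 13.6%. Its counts were 48, 358 and 1123 in WT4 to WT6 and 2306, 1241 and 3468 in KO4 to KO6, which are 2.78%, 8.84% and 14.3% and 28.7%, 6.47% and 20.7% of the locus. The shares of the groups overlapped through KO5, and the log2 fold change of 2.45 (standard error 0.94) did not pass the threshold (adjusted p = 0.159, edgeR). Igkv3-2, the kappa gene with the highest mean share, 21.1%, held 2.17%, 18.3% and 34.4% in WT4 to WT6 and 40.1%, 2.83% and 28.4% in KO4 to KO6. It was thus low in WT4 and KO5, the same mice in which Ighv1-26 was lowest, and it lies next to the joining segments, 24.5 kb away. Its log2 fold change was 1.66 (standard error 1.34, adjusted p = 0.488, edgeR).

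KO5 was led by other genes. Ighv3-6 had 10, 183 and 217 counts in WT4 to WT6, 302 and 343 in KO4 and KO6, and 5757 in KO5, where it was 30.0% of Ighv counts against at most 4.52% elsewhere (log2 fold change 3.27, standard error 1.08, adjusted p = 0.118, edgeR, and 1.56 without KO5). Igkv5-39 held 16.4% of Igkv counts in KO5 and 0.54% to 8.41% in the other mice, and Igkv4-57 held 12.1% there and at most 0.64% elsewhere. Among the next most used genes, Ighv1-53 held between 2.45% and 9.81% in all mice and Igkv1-110 between 1.48% and 15.8%. At least 1% of the locus was reached in every mouse by 4 Ighv genes (Ighv1-26, Ighv1-53, Ighv1-55 and Ighv1-9), 2 Igkv genes (Igkv3-2 and Igkv1-110) and all 3 Iglv genes. By contrast 39 Ighv and 44 Igkv members reached 1% in no mouse.

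For each mouse the member with the largest ratio to the median share of the other mice was also taken. In WT6 Ighv1-20 had 1300 counts and 16.6% of the locus, against 2 to 42 counts and a median of 0.054% in the other mice. In the same mouse Igkv1-122 had 2406 counts and 14.7%, against 0 to 29 counts and a median of 0.027%. WT4 was led by Igkv12-98, with 297 counts and 10.7% against 7 to 40 counts elsewhere. These examples come from WT mice, so strong use of a gene in a lone animal was also seen in the WT group. In WT5 the clearest case was Ighv1-43 with 116 counts (2.87%), against 0 to 23 counts elsewhere, and among kappa genes it was the Igkv12-47 row with identifier ENSMUSG00000079543 (115 counts, 1.57%).

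In the KO mice the heavy chain genes with the largest ratio to the median of the other mice were Ighv1-19 in KO4 (689 counts, 8.57%, at most 1.62% elsewhere), Ighv1-71 in KO5 (901 counts, 4.70%, at most 0.40% elsewhere) and Ighv14-4 in KO6 (1449 counts, 8.66%, but 3.61% in WT5). The kappa genes were Igkv4-59 in KO4, Igkv4-57 in KO5 and Igkv4-63 in KO6. Igkv4-57 held 12.1% in KO5 and at most 0.64% elsewhere, and Igkv4-63 held 4.08% in KO6 and at most 0.96% elsewhere. Igkv4-59 was shared by KO4 and KO5, with 507 counts (2.74%) and 634 counts (2.09%). Ighv1-71 differs from Ighv1-62-2 at 1 of 359 aligned bases, so its reads could not be well told apart from those of that gene, which had at most 10 counts in any library. Members with at least 1% of the locus and at least 5 times the median share of the other mice numbered 2 to 8 per mouse in Ighv and together held 16.7% to 52.5% of its counts, with the most in KO5. In Igkv they numbered 4 to 6 and held 16.6% to 44.5%, again with the most in KO5.

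**Figure D4:**
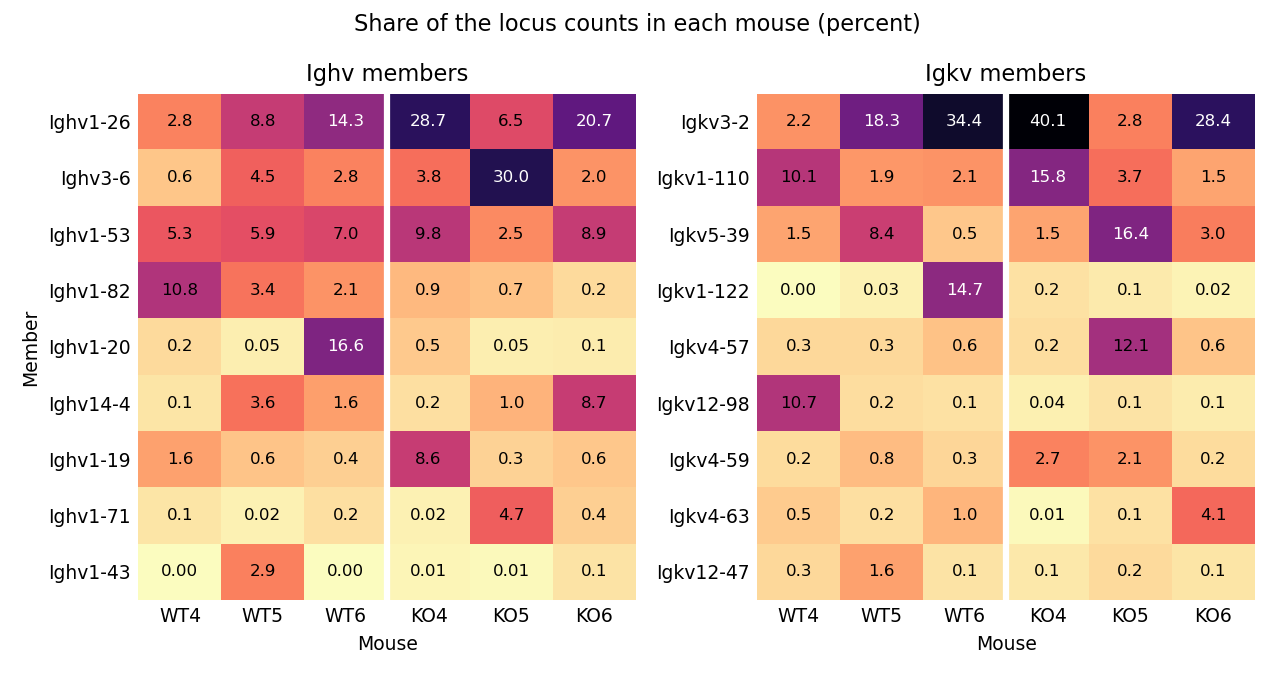
Share of the locus counts (percent, printed in each cell and coloured on a square-root scale) for the Ighv and Igkv members that led a mouse, were particular to a mouse or had the highest mean share, in columns by mouse. Ighv1-26 and Igkv3-2 are high in WT6, KO4 and KO6 and low in WT4 and KO5, while Ighv1-20 (16.6%) and Igkv1-122 (14.7%) stand out in WT6 only among these mice.

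Because shares within a locus add up to 100%, a gene that takes more leaves less for the others. The share was higher in every KO mouse than in any WT mouse for 7 members, 3.65% of the 192, and lower for 22, 11.5%. Of the 7, 6 had reached the count minimum through the KO libraries alone, so that the minimum itself favoured a higher KO share and nothing is read from their number. The 7 were mostly rare genes (Ighv2-5, Ighv9-2, Igkv11-125, Igkv4-62, Igkv8-23-1 and the second Igkv12-47 row, each under 0.31% of the locus in every mouse), and the exception was Iglv3. Iglv3 made up 5.03%, 5.99% and 5.38% of lambda counts in WT4 to WT6 and 31.5%, 8.98% and 8.95% in KO4 to KO6. The 22 included genes of moderate use such as Ighv9-3, with 7.94%, 2.495% and 2.27% in WT and 0.76%, 0.88% and 1.88% in KO mice, and Ighv1-81, with 4.23%, 3.26% and 1.15% in WT and 0.25%, 0.40% and 0.69% in KO mice. The largest mean fall in share of each locus was that of Ighv1-20 and Igkv1-122, set by WT6 alone, and of Iglv2, which held 43.3% of lambda counts in WT4 and 3.98% to 20.6% in the other mice. No test was applied to these shares.

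Genes were also grouped by family, the genes that share a number before the hyphen. Of 15 Ighv families Ighv1, the largest with 49 members, held 52.6%, 65.2% and 72.3% of Ighv counts in WT4 to WT6 and 85.7%, 44.9% and 62.8% in KO4 to KO6. Its mean was 63.4 ± 9.95% (SD, n = 3) in WT and 64.5 ± 20.5% (SD, n = 3) in KO mice, a difference well within the spread. In KO5 the family Ighv3 took 30.5% through Ighv3-6, against 0.99% to 5.73% in the other mice. Of 18 Igkv families Igkv3 held 5.28% to 46.5%, lowest in KO5 and WT4 and highest in KO4. Families whose groups did not overlap, singled out after their values were seen, were 4 of the Ighv families, all lower in KO mice, and 3 of the Igkv families. The 4 were Ighv6, Ighv8, Ighv9 and Ighv10, among them Ighv9 (4.90 ± 3.19% in WT against 1.72 ± 0.43% in KO mice), Ighv8 (3.65 ± 0.51% against 1.23 ± 0.54%) and Ighv10 (2.53 ± 1.63% against 0.89 ± 0.57%), SD and n = 3 for each. Igkv9 was lower in KO mice (1.84 ± 0.56% against 0.73 ± 0.33%), and Igkv11, whose only member is Igkv11-125, was higher. Igkv4, with 24 members, was also higher, at 9.93%, 12.02% and 9.76% in WT and 14.6%, 27.5% and 17.4% in KO mice. No test was applied to the families.

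Mice of the same genotype were not in every case more alike in usage than mice of different genotypes. The overlap of usage, the sum over genes of the smaller of the 2 shares, had a median of 54.3% over 3 pairs of WT mice, 39.5% over 3 pairs of KO mice and 46.5% over 9 mixed pairs for Ighv. For Igkv the medians were 51.9%, 37.8% and 51.0%. The lowest Ighv overlap, 34.9%, was between WT4 and KO4, and the lowest Igkv overlap, 34.8%, was between WT6 and KO5. Within the KO group the pair KO4 and KO6 overlapped by 56.6% for Ighv and 55.7% for Igkv, while both pairs with KO5 overlapped by at most 39.5%. The pairs share mice and were not tested.

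Along the chromosome, use was not confined to the genes nearest the joining segments. The Ighv members lie 150 to 2571 kb from the mean position of the Ighj segments, and the 55 members in the nearer part of this range held 57.9%, 50.9% and 63.0% of counts in WT4 to WT6 and 55.4%, 63.8% and 66.5% in KO4 to KO6. Ighv1-26, the most used gene, is near the middle at 1359 kb, Ighv3-6 is at 859 kb and Ighv1-82 at 2524 kb. The Igkv members lie 19.4 to 3167 kb from the Igkj segments, and the 54 in the nearer part held 48.6% of counts in WT4 and 56.3% to 75.5% in the other mice. The groups overlapped in both loci.

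**Figure D5:**
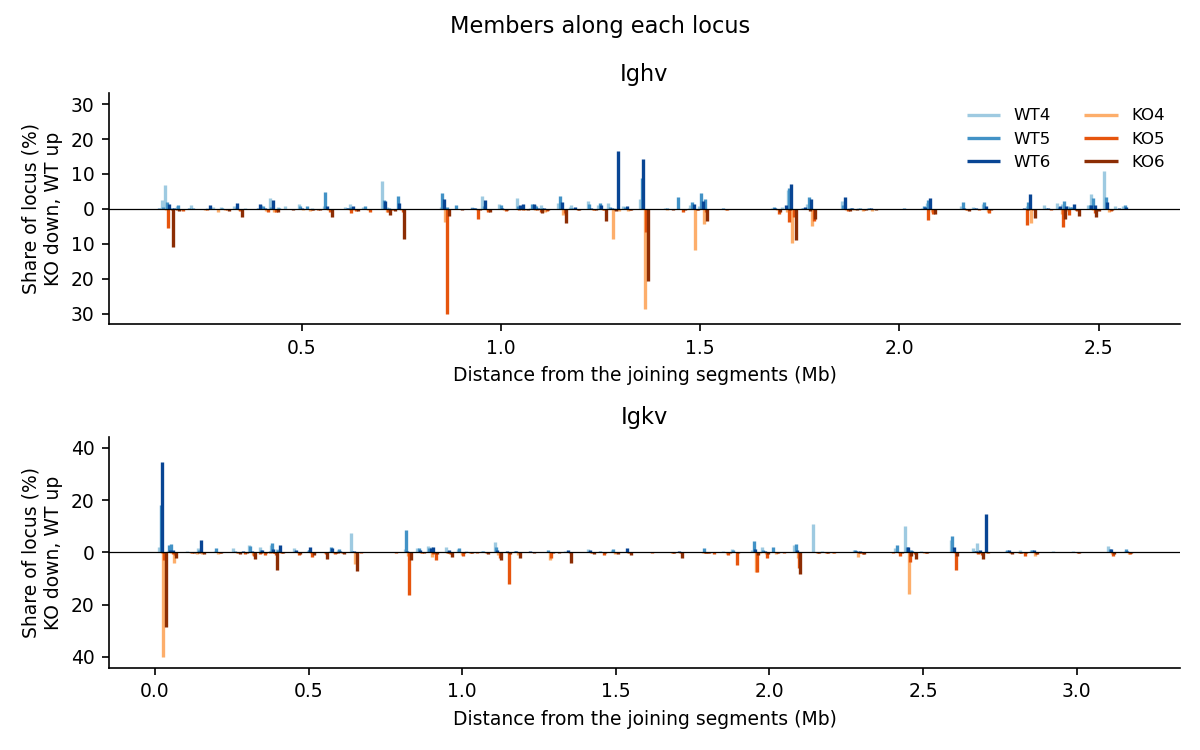
Share of the locus counts (%) of each Ighv and Igkv member against its distance from the joining segments (Mb), with WT mice drawn upward and KO mice downward from 0 and 1 colour per mouse. The tallest lines are Igkv3-2 next to the joining segments (40.1% in KO4), Ighv1-26 near the middle of the heavy chain locus (28.7% in KO4) and Ighv3-6 (30.0% in KO5), and used members are spread over the whole length of both loci.

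The balance of the light chains varied within both groups. Iglv counts made up 9.72%, 3.51% and 3.08% of light chain variable counts in WT4 to WT6 and 2.15%, 6.13% and 1.69% in KO4 to KO6. WT4 and KO5 were the mice with the most lambda, and the Wilson intervals of WT4 (8.72% to 10.8%) and KO5 (5.88% to 6.40%) excluded the values of all other mice. On the log2 scale the ratio of kappa to lambda counts was 4.32 ± 0.97 in WT and 5.10 ± 1.02 in KO mice (SD, n = 3, exact permutation p = 0.4, adjusted 0.56), and the difference was 1.36 without KO5. The ratio of light to heavy chain variable counts was 1.69 to 2.35 in all mice.

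T cell receptor variable genes, the counterparts in T cells, gave 191, 141 and 252 counts in WT4 to WT6 and 200, 1012 and 247 counts in KO4 to KO6. KO5, the deepest library, had about as many counts as the other mice together. Scaled for depth, Trbv was at 14.3 CPM in KO5 and 3.93 to 6.52 CPM in the other mice. Trav was at 5.37 CPM in KO5 and 1.29 to 3.11 CPM in the other mice. Summed by locus, Trav and Trbv did not overlap between groups, with log2 fold changes of 1.23 (adjusted p = 0.0949, edgeR) and 0.99 (adjusted p = 0.118, edgeR), or 0.71 and 0.45 without KO5, and Trgv and Trdv overlapped. The log2 ratio of immunoglobulin to T cell receptor variable counts was 5.88 ± 1.07 in WT and 6.77 ± 0.98 in KO mice (SD, n = 3, exact permutation p = 0.4, adjusted 0.56), and the difference was 1.44 without KO5. The joining segments of the heavy chain, Ighj1 to Ighj4, had 26, 26 and 51 counts in WT4 to WT6 and 78, 665 and 128 counts in KO4 to KO6, and those of the kappa chain had 114, 93 and 169 and 175, 1127 and 394. Relative to the library total the joining segments were highest in KO5, as Cd79a was, while Ighv and Igkv were highest in KO6.

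How far a count can be assigned to a gene was measured in the reference transcripts. Of all windows of 50 bases, a median of 77.0% per Ighv member and 75.5% per Igkv member occurred in no other variable gene, and with windows of 100 bases the medians were 100%. Only 2.58% of the windows of 50 bases were unique in the least distinct Ighv member, Ighv1-71. In 11 of 94 Ighv and 14 of 94 Igkv members with a sequence fewer than 50% of these windows were unique. Values of single genes in these families may therefore hold reads of their nearest relatives, or lack reads that matched several genes, and the part of this in the shares was not tested.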

How the data were processed

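Lungs of 3 WT and 3 KO mice at ZT10 were profiled by poly(A) RNA-seq with stranded libraries. The authors trimmed reads (Trimmomatic 0.36), aligned them to GRCm38 (STAR 2.5.3a) and counted them with HTSeq 0.6.0; the deposited values are raw counts per Ensembl gene. The annotation release, strand setting and counting mode are not given in the sources used here. Tool versions follow the submitters' processing notes.

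The members and gene lists were chosen with earlier results of these data known. Counts were tested with edgeR 4.0.16 in R 4.3.3 (quasi-likelihood test, TMM scaling, filterByExpr, Benjamini-Hochberg adjustment at 0.05), gene by gene and with members summed by locus. Shares, effective numbers (unbiased inverse Simpson index) and log2 ratios were compared over mice by two-sided exact permutation tests with SciPy 1.17.1. Marker lists for B cells, plasma cells, constant regions, germinal centre, recombination (Rag1, Rag2, Dntt, Igll1 and Vpreb genes), lymphoid stroma, T cells and lung were summarised by counts and medians. Named genes were Zpbp2, the 3 members per locus with the highest mean share, the leader of each mouse, members past the thresholds, the member most particular to each mouse, the largest falls in share, members at the count minimum and list genes; other genes were chosen after their values were seen. Standard errors are the log2 fold change divided by the square root of F. Alternatives were DESeq2 1.42.0 and its size factors, TMM without immunoglobulin rows, other filters and count minimums, a replicate block, each mouse left out, families summed, the Shannon number and, added after seeing the data, counts per base, and marker lists and T cell receptor loci without KO5. Library totals of 19981428 to 46796908 put 3 counts at 0.0641 to 0.150 CPM. On simulated data for 17037 genes, with 200 changed by a log2 fold change of 2, the KO against WT fit recovered 91.7% of them with 7.09% false calls. The spread between simulated mice was capped for the noisiest genes. These rates therefore do not describe genes with standard errors as large as those of the members.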

Additional observations from a re-analysis of the deposited data

How the results depend on the processing

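Log2 fold changes of the locus sums kept their direction in all settings; without a filter on low counts Ighv (1.64), Igkv (1.58) and Iglv (1.05) passed the threshold, as did Ighv (1.65) and Iglv (1.05) with DESeq2, and the adjusted p ranged over all settings from 0.0233 to 0.214, 0.0447 to 0.270 and 0.000571 to 0.199. Members called higher numbered 26 of 192 with no filter, against 847 of 28625 genes, and 11 of them were those of the report. That fit tested the 22 members that reached the count minimum through the KO libraries alone, so nothing is read from its number. With at least 10 counts in every library 3 of 76 members were called higher, close to the share of all genes (657 of 15986). DESeq2 called 26 members higher, against 6.87% of all genes with an adjusted p. Past both thresholds the members numbered 26, 3 and 25 in these 3 settings. The replicate block called 66 genes in all against 1089, 30 of them higher. It gave 2 members called higher, 2 past both thresholds and 0 called lower. In that fit 52 members had an unadjusted p under 0.05 and a positive and 6 a negative fold change. The share of all genes at that unadjusted p was not counted there. The mice share only a number: the deviations of WT4 and KO4, WT5 and KO5 and WT6 and KO6 correlated at -0.10, -0.19 and -0.061, and 0 of 6 mice correlated best with their own number. With each mouse left out, members called higher ranged from 0 to 23, past both thresholds from 0 to 21 and called lower from 0 to 1, and the Iglv log2 fold change from 0.68 to 1.26. In the same fits the KO minus WT difference ranged from -8.54 to 7.54 percentage points for the leading Iglv share and from -0.15 to 0.28 genes for the Iglv effective number, so the sign depended on which mouse was left out. Of the 143 members tested 44 changed the sign of their log2 fold change in these fits, among the named members Ighv14-4 (-0.56 to 3.52), Igkv4-63 (-1.93 to 5.10), Igkv12-47 with identifier ENSMUSG00000079543 (-1.20 to 1.37) and Iglv2 (-1.19 to 0.94, and -0.16 in the block). The causes were not tested. Other differences in usage and ratios kept their direction in all settings. With 3 mice a group the exact tests cannot pass 0.05.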
